A study of Macaca fascicularis and Mus musculus with 42 samples.

Results

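The HOX clusters and the CDX genes were described in cultures of the cynomolgus monkey, Macaca fascicularis, and of mouse in which stem cells were induced to form primordial germ cell-like cells (PGCLC), a model of the founders of the germ line. The genes were chosen by name alone: every entry called HOXA, HOXB, HOXC or HOXD followed by a number, together with CDX1, CDX2 and CDX4. Of the 26018 monkey entries, 41 met this rule, namely 11 HOXA, 10 HOXB, 9 HOXC, 8 HOXD and 3 CDX genes. Of the 34896 mouse entries, 42 did. Levels are in RPM, the reads of a gene scaled to the size of its library, and come from 42 bulk libraries that read the 3′ ends of transcripts.

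The monkey cells of the reporter lines carried the transgenes Blimp1-tdTomato and TFAP2C-EGFP, so that tdTomato stood for PRDM1 (also named Blimp1) and EGFP for TFAP2C. The reporter line was 656BTAG42 in every library kept but reporter ESC library 2, which was 656BTAG63. Undifferentiated embryonic stem cells (ESC) were grown in AITS+IF20, the AITS medium with bFGF and IWR1. For induction, ESC were aggregated with BMP4, SCF, EGF, LIF and Y27632 in GK15 (GMEM with the serum replacement KSR) or in aRB27 (Advanced RPMI1640 with B27), and all induced groups shared these agents. Cells labelled BTAG positive gave 15 libraries kept: 1, 1, 2, 2 and 2 on days 2, 4, 6, 8 and 10 in GK15, and 2, 2 and 3 on days 2, 4 and 6 in aRB27. Cells labelled BT single positive gave 3 libraries, 1 on day 2 and 2 on day 4 in aRB27. Cells labelled AG mid positive gave 2, 1 on day 2 in aRB27 and 1 on day 4 in GK15. Reporter ESC gave 4 libraries, and 5 more came from ESC of lines without transgenes. The 4 mouse libraries were PGCLC of the line R8, which carried Blimp1-membraneVenus and Dppa3-ECFP and was induced in GK15 by way of epiblast-like cells (EpiLC), 2 each on days 4 and 6. The labels state neither separate cultures nor whether a line is a single clone, so the p-values speak only of the spread among the libraries at hand.

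HOX genes encode homeodomain transcription factors that give cells their position along the head-to-tail axis. They lie in clusters named A to D, in which low numbers lie towards the 3′ end and act in anterior regions, and high numbers lie towards the 5′ end and act in posterior regions. The CDX genes encode caudal-type homeodomain factors, relatives of HOX, that respond to WNT and FGF signals in the posterior embryo and bind HOX genes directly. In the mouse embryo Hox transcripts of the posterior mesoderm have been reported to decline in primordial germ cells as these are specified.

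What the proteins share is the homeodomain, whose recognition helix reads DNA, and the bases that encode part of it are shown because they are the feature common to both families. The sequences are from mouse (GRCm38, GENCODE M21), since no monkey sequence was used here. Each is a run of 60 coding bases, with the motif TGGTTNCANAAN in capitals, which was searched in frame on the coding strand and encodes the core of that helix. It was found in 42 of 42 mouse Hox and Cdx genes and in 214 of 21762 coding sequences in all (0.983%). The genes shown are some of those on which the results below turn.
Cdx2: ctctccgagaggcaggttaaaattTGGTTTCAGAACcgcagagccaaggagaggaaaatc
Cdx4: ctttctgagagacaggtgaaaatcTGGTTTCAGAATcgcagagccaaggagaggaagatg
Hoxa10: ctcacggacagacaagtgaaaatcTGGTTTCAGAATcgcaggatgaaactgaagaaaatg
Hoxb2: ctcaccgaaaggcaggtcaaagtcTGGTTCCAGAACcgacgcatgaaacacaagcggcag
Hoxb6: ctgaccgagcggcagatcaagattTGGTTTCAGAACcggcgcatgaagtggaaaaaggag

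The stretch of Cdx2 lies on the minus strand over chr5:147303181-147303195 in exon 2 and chr5:147302049-147302093 in exon 3. That of Cdx4 lies on the plus strand over chrX:103328140-103328154 in exon 2 and chrX:103329434-103329478 in exon 3. That of Hoxa10 (chr6:52232557-52232616) lies on the minus strand in exon 2 of 2. Hoxb2 (chr11:96353102-96353161) has its stretch in exon 2 of 2 and Hoxb6 (chr11:96300806-96300865) in exon 3 of 3, both on the plus strand. Cdx2 and Cdx4 were identical at 52 of 60 bases (86.7%). Cdx2 and Hoxa10 shared 71.7% of the bases, as did Hoxb2 and Hoxb6.

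Of the 33 libraries of the reporter lines, 9 were left out because their labels were doubtful, a choice made with results of these data known. In 6 of them PRDM1 went against the label: it stood at 252.51 RPM in 1 labelled reporter ESC (library 5), at 0 to 4.9 RPM in 3 labelled GK15 BTAG and at 145.12 and 193.73 RPM in 2 labelled GK15 AG mid. In the other 3, labelled aRB27 BTAG, it stood at 135.21 to 194.39 RPM, within the range of the BTAG libraries kept. Among the libraries kept, PRDM1 ranged from 117.65 to 318.24 RPM in BTAG, 85.07 to 114.32 in BT single, 0.9 to 11.14 in AG mid and 0 to 2.59 in reporter ESC. TFAP2C ranged from 337.1 to 717.48, 0.34 to 3.48, 24.35 to 145.65 and 2.94 to 14.24 RPM in the same order. SOX17, a germ cell and endoderm factor, ranged from 597.42 to 1190.07, 475.23 to 924.74, 4.63 to 114.29 and 0 to 3.45 RPM. Depth was 1.07 to 6.76 M reads in the monkey libraries kept (median 2.26) and 2.26 to 2.48 M in mouse, so 1 read stood for 0.147 to 0.929 RPM in monkey.

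A gene was tested when 2 or more of the 24 reporter-line libraries kept had 10 RPM or more, and 18 of the 41 monkey genes reached it. Only 7 of these did so on BTAG or ESC libraries alone, among them CDX1, CDX2, CDX4, HOXA7, HOXA9 and HOXA10. The other 11 (HOXA11, HOXB2, HOXB3, HOXB6, HOXB7, HOXC13, HOXD4, HOXD9, HOXD10, HOXD11 and HOXD13) passed only with BT single or AG mid libraries, so they had to be high there and counts over the 18 are an account, not evidence. Another 23 genes were not tested. Their highest value was 17.73 RPM (HOXD8), followed by HOXD3 at 16.64, HOXA3 at 16.29, HOXB5 at 13.39, HOXB9 at 11.96 and HOXB4 at 11.8 RPM, all in BT single or AG mid libraries, and in BTAG and ESC libraries it was 8.3 RPM (HOXA5). HOXC10 and HOXC12 were listed at 0 in all 24.

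**Figure D1:**
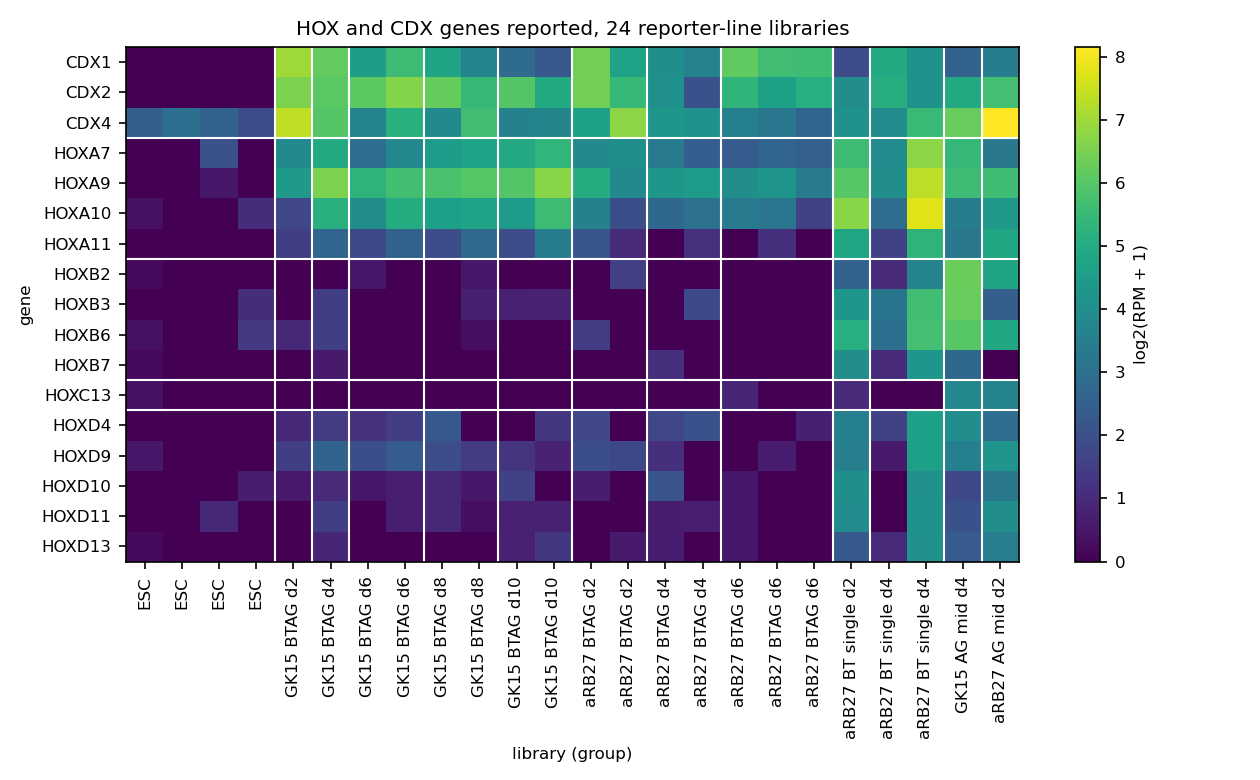
Level of the tested genes named in the text (rows, ordered by cluster) in each of the 24 reporter-line libraries kept (columns, ordered by group), as log2(RPM + 1) on the colour scale. In the 15 BTAG libraries the CDX genes, HOXA7, HOXA9 and HOXA10 have levels above 0 throughout, whereas rows of the B, C and D clusters are bright mainly in BT single and AG mid columns.

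In reporter ESC the clusters were nearly silent: HOX reads added up to 1.72 to 11.88 RPM per library. CDX1 and CDX2 were listed at 0 in all 4 libraries, as were HOXA11 and HOXD4. CDX4, the X-linked member of its family, stood at 4.56, 6.9, 4.84 and 2.69 RPM. HOXA9 was at 0.44 RPM in 1 library and at 0 in the other 3. HOXA7 was at 3.08 RPM in 1 library and at 0 in the other 3. These low levels rest on few reads, and in bulk RNA fewer cells with a transcript cannot be told apart from less of it per cell, here and in all results below.

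The 3 CDX genes had reads in every BTAG library kept, and on day 2 all 3 lay above ESC. CDX1, a caudal factor of the posterior embryo and intestine, stood on day 2 at 126.91 RPM in GK15 and at 85.31 and 24.86 RPM in aRB27. CDX2, known for posterior axis growth, the intestine and the trophoblast, stood at 92.51 RPM in GK15 and at 85.31 and 43.37 RPM in aRB27. CDX4 stood at 166.89 RPM in GK15 and at 24.54 and 106.24 RPM in aRB27. Every day 2 value was thus above all 4 ESC libraries. The share of all genes that separate from ESC this way was not taken, here or for single HOXA genes below. Against an ESC floor of 0.228 RPM, which is 3 reads in the 4 libraries combined, day 2 CDX1 was at least 347-fold and CDX2 at least 324-fold higher. By limma, CDX4 rose by 4.08 ± 0.53 (log2(RPM + 1) difference ± SE, adjusted p = 1.17e-05), CDX1 differed by 6.28 ± 0.41 (1.98e-09) and CDX2 by 6.25 ± 0.43 (3.26e-09). The last pair of values depends on the pseudocount of 1, since the ESC libraries were at 0.

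Later levels are given for each of the 3 genes, and differences between the genes were not tested. CDX1 in GK15 stood at 72 RPM on day 4, 22.07 and 47.02 on day 6, 26 and 11.85 on day 8, and 6.23 and 3.77 on day 10, so that both day 10 libraries were the lowest of the medium. CDX4 in GK15 stood at 61.17 RPM on day 4, 11.66 and 34.96 on day 6, 13.93 and 49.59 on day 8, and 11.07 and 12.07 on day 10, all under its day 2 level. CDX2 in GK15 stood at 66.83 RPM on day 4, 67.88 and 98.26 on day 6, 74.28 and 43.01 on day 8, and 62.29 and 30.92 on day 10, so the days overlapped. In aRB27 the order differed. CDX1 was lowest on day 4, at 15.55 and 11.21 RPM, and stood at 70.25, 49.25 and 48.29 RPM on day 6. CDX2 was at 16.12 and 3.11 RPM on day 4 and at 39.78, 24.04 and 34.4 RPM on day 6. CDX4 was at 19 and 17.44 RPM on day 4 and at 10.58, 8.21 and 5.29 RPM on day 6, the last of which lay within the ESC range.

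**Figure D2:**
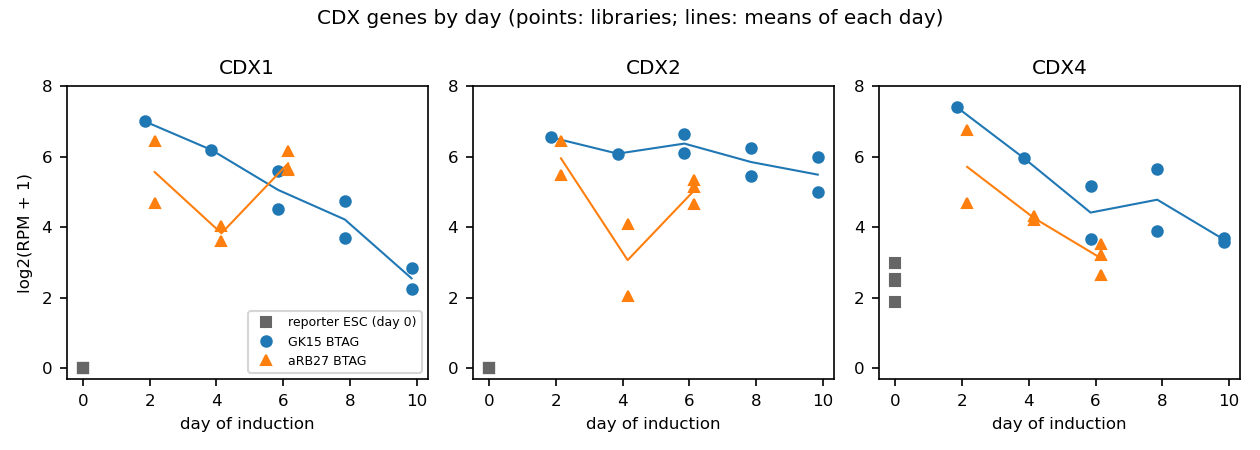
Levels as log2(RPM + 1) of CDX1, CDX2 and CDX4 (1 panel each) against the day of induction, with the 4 reporter ESC libraries at day 0. Points are BTAG libraries in GK15 and in aRB27 and lines join the means per day. CDX1 in GK15 runs from 126.91 RPM on day 2 to 6.23 and 3.77 RPM on day 10, while CDX2 is still at 62.29 and 30.92 RPM.

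A slope over days with medium as a term was fitted to the 15 BTAG libraries kept, where 7 of the genes could be tested. CDX4 fell by 3.72 ± 0.64 on the log2 scale over 8 days (limma, adjusted p = 0.00048). CDX1 fell by 3.04 ± 0.85 (limma, adjusted p = 0.0134), in this fit 2 of 7 genes tested against 12.2% of all 9826 genes tested that fell and 7.14% that rose. CDX2 did not pass (-1.08 ± 0.78, limma adjusted p = 0.325). HOXA7, HOXA9 and HOXA10 did not pass either: the slope was 0.12 ± 0.64 for HOXA7, 0.61 ± 0.51 for HOXA9 and 1.58 ± 0.74 for HOXA10 (adjusted p = 0.123, the smallest of the 3). Days 8 and 10 were kept only in GK15, and the fit gave both media 1 common slope. In aRB27 the CDX1 means were 55.1, 13.4 and 55.9 RPM on days 2, 4 and 6, so CDX1 was not lower on day 6 there. Without GK15 BTAG day 2 library 1 CDX1 was lost (-2.52) and 1 gene passed, CDX4, and with every library as labelled also only CDX4.

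In BTAG cells, most HOX reads were those of the A cluster. Since reads come from the 3′ end of a transcript, sums over genes were taken without regard to transcript length. HOXA reads made up 74.1% to 97.1% of all HOX reads per library (median 89.1%, n = 15), against 59.9% to 67.9% in BT single and 37.5% to 51.2% in AG mid. The summed HOXA level was 16.53 to 215.68 RPM in BTAG. HOXB sums reached 0 to 4.99 RPM, HOXC sums 0 to 9.29 RPM and HOXD sums 0.59 to 13.44 RPM. In reporter ESC the sums were 0 to 3.52 RPM for HOXA, 0.88 to 3.24 for HOXB, 0 to 3.24 for HOXC and 0 to 2.7 for HOXD, so that only the HOXA sums lay apart from ESC in every BTAG library.

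**Figure D3:**
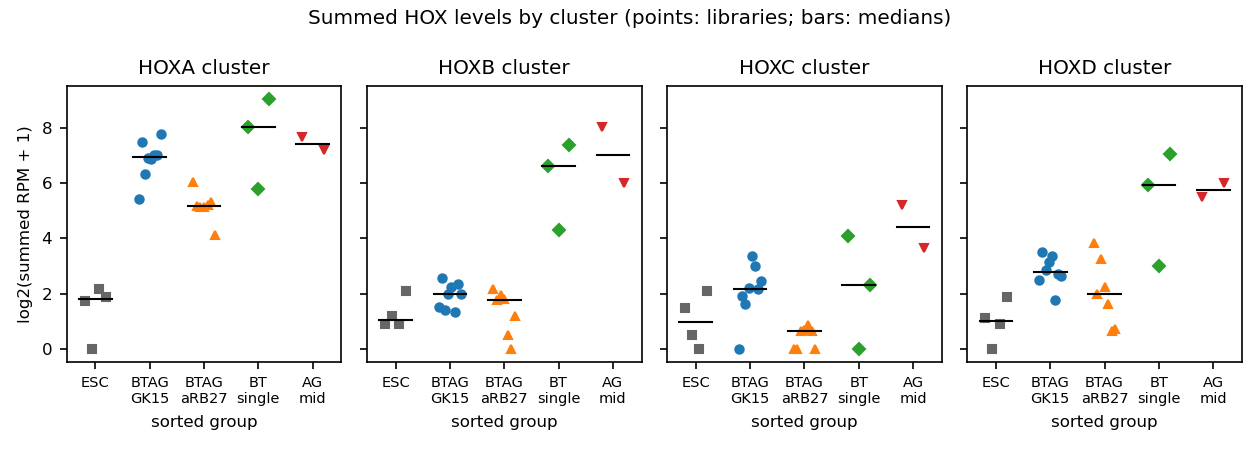
Summed level of the genes of each cluster per library, as log2(summed RPM + 1), by group. Points are libraries and bars are medians. The HOXA sums of BTAG (16.53 to 215.68 RPM) lie above all reporter ESC libraries, while the HOXB sums of BTAG (0 to 4.99 RPM) lie under those of BT single (18.92 to 164.61 RPM) and AG mid (62.29 and 257.58 RPM).

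HOXA7, HOXA9 and HOXA10 reached 10 RPM in 9, 14 and 8 of the 15 BTAG libraries. HOXA7, a trunk-level gene, stood on day 2 at 13.48 RPM in GK15 and at 13.44 and 15.6 RPM in aRB27, above all ESC libraries, and rose by 3.40 ± 0.58 (limma, adjusted p = 0.000229). HOXA9, a gene of the posterior trunk that is also known from blood progenitors, stood at 20.45 RPM in GK15 and at 32.14 and 13.65 RPM in aRB27. It rose by 4.31 ± 0.53 on day 2 (limma, adjusted p = 6.81e-06). HOXA10, known for the posterior trunk and the uterus, stood at 2.32, 11.1 and 2.92 RPM. Its day 2 libraries were all above ESC (0 to 1.08 RPM), yet it did not pass the test there.

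In GK15 they were followed to day 10. HOXA9 stood at 92.33 RPM on day 4, 38.31 and 50.64 on day 6, 54.78 and 63.42 on day 8, and 62.29 and 102.56 on day 10. HOXA10 stood at 35 RPM on day 4, 14.99 and 31.95 on day 6, 23.21 and 25.67 on day 8, and 21.45 and 47.51 on day 10. HOXA7 stood at 29.67 RPM on day 4, 6.66 and 12.66 on day 6, 21.36 and 25.45 on day 8, and 29.07 and 39.97 on day 10. Both day 10 libraries were thus above the single day 2 library for each of the 3 genes, although none of the slopes passed. How many of all genes had that order was not taken, so it is an account, not evidence. In aRB27 on day 6, HOXA9 stood at 15.23, 17.59 and 9.26 RPM, HOXA10 at 9.31, 8.21 and 1.98 RPM, and HOXA7 at 4.23, 5.28 and 4.63 RPM.

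HOXA11, a posterior gene of limb and uterus, reached 10 RPM in 0 of the 15 BTAG libraries and ranged from 0 to 9.8 RPM (median 2.5). Means over GK15 days 8 and 10 put it at least 23.4-fold above the ESC floor. HOXA13, at the 5′ end, was among the genes not tested.

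**Figure D4:**
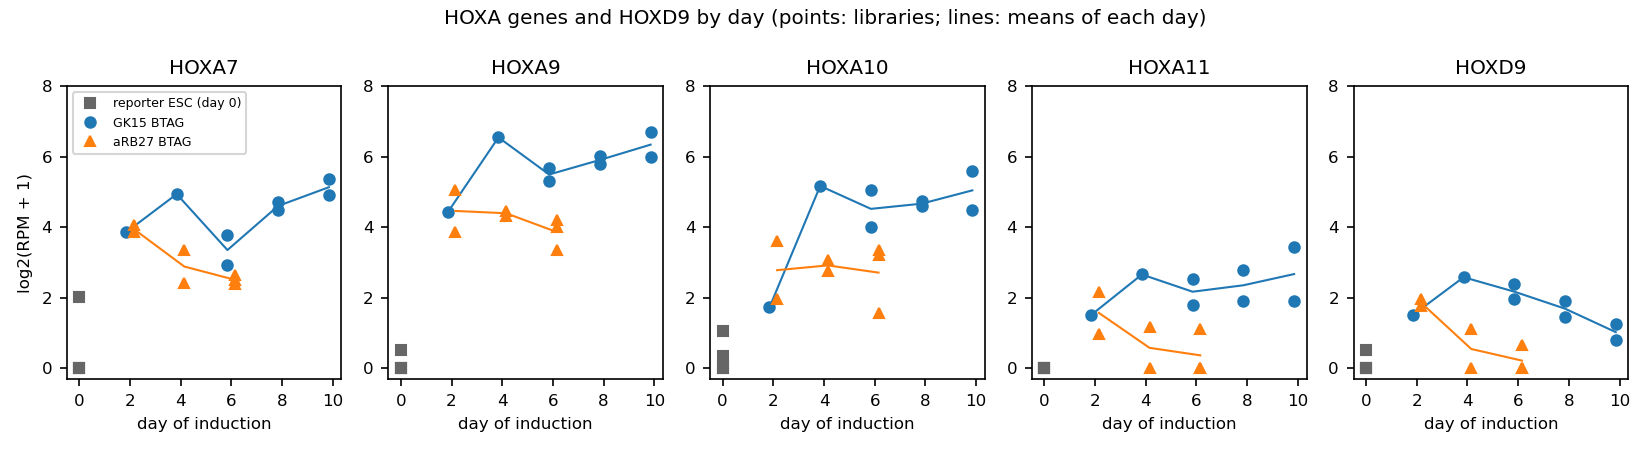
Levels as log2(RPM + 1) of HOXA7, HOXA9, HOXA10, HOXA11 and HOXD9 (1 panel each) against the day of induction, with the 4 reporter ESC libraries at day 0. Points are BTAG libraries in GK15 and in aRB27 and lines join the means per day. HOXA9 in GK15 runs from 20.45 RPM on day 2 to 62.29 and 102.56 RPM on day 10, and in aRB27 it is at 9.26 to 17.59 RPM on day 6.

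Of the 18 genes tested, 5 rose on day 2 against reporter ESC: CDX1, CDX2, CDX4, HOXA7 and HOXA9, where 10.5% of all 10701 genes tested rose and 5.51% fell. In GK15 on day 6, 9 rose against a background of 14% (10.8% fell), among them these 5, HOXA10 (4.16 ± 0.87), HOXA11 and HOXD9. In aRB27 on day 6, 5 rose against 12.8% (13.1% fell): CDX1, CDX2, HOXA7, HOXA9 (3.73 ± 0.52) and HOXA10 (2.36 ± 0.77). In GK15 on days 8 and 10, 8 rose against 15.4% (15.7% fell), among them the CDX genes, HOXA7 (4.36 ± 0.52), HOXA9 (5.99 ± 0.48), HOXA10 (4.50 ± 0.71) and HOXA11. Markers of other cells also changed: on day 2, 4 of 6 amnion and trophoblast markers tested rose and 1 fell, with a median of 5.17. Their sums over 9 genes were 369.26 to 786.1 RPM against 36.92 to 76.81 RPM in ESC. Of 7 mesoderm markers tested 3 rose and none fell, with a median of 1.84 and sums of 168.85 to 421.57 RPM against 21.01 to 46.59 RPM. Of 8 endoderm markers tested 3 rose and none fell (median 1.73), and of 6 stroma markers 2 rose and 2 fell. In the other 3 comparisons, in the order given, the amnion and trophoblast medians were 3.03, 3.23 and 3.65. Those of mesoderm were 0.56, 1.83 and 1.51, and those of endoderm -0.08, -0.02 and 0.02. Their part in the CDX and HOX differences was not tested. None of the 18 fell in any of these comparisons, which share the 4 ESC libraries and are not independent of each other. The median log2 difference of the 18 genes was 1.05, 1.64, 0.22 and 1.06 in the same order, against 0.05, 0.01, -0.08 and -0.09 over all genes tested. With genes at 0 in ESC set to their bound it was 1.37, 1.99, 0.22 and 1.43. With every library as labelled the counts were 0, 0, 2 and 5. Calls that hung on 1 library included those of HOXA11 and HOXD9 in GK15 on day 6 (lost without any of the 6 libraries for HOXA11, and without any but ESC library 1 for HOXD9), CDX4 there (without day 6 library 3) and HOXA10 in aRB27 on day 6 (without library 1 or 3), and with the title code MS162 only, the day 6 counts were 5 in GK15 and 3 in aRB27.

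The media were compared directly in BTAG libraries of days 2 to 6. None of the 18 genes was called by limma, where 0.0841% of all genes tested were called, nor by edgeR, while DESeq2 called 1, CDX2, lower in aRB27. At an unadjusted p under 0.05, where 735 of all 10701 genes tested differed, 7 of the 18 were lower in aRB27, among them CDX1, CDX2, CDX4, HOXA9, HOXA11 and HOXD9. CDX2 came closest, with a difference of -1.64 ± 0.35 (limma, adjusted p = 0.099). Over these days the summed HOXA levels were 42.28, 176.99, 79.95 and 118.76 RPM in GK15 (days 2, 4, 6 and 6) and 16.53 to 64.86 RPM in aRB27 (median 35.09, n = 7), so the ranges overlapped through GK15 day 2. The median difference of the 18 genes was -0.75, against -0.07 over all genes tested. Without aRB27 BTAG day 4 library 1, limma called 1 gene.

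In BT single cells, which have PRDM1 and SOX17 but little TFAP2C, HOX reads added up to more than in every matched BTAG library in 2 of the 3 libraries. HOXB6, a trunk-level gene of the B cluster, stood at 34.51 RPM on day 2 and at 6.97 and 51.73 RPM on day 4, while all 15 BTAG libraries were at 0 to 1.83 RPM. HOXB3, a gene of the hindbrain, stood at 19.13 RPM on day 2 and at 7.96 and 49.2 RPM on day 4, against 0 to 2.49 RPM in BTAG. HOXA10 stood at 103.18 RPM on day 2 and at 6.47 and 213.81 RPM on day 4, against 2.92 to 11.1 RPM in the 4 matched BTAG libraries, so the groups overlapped through day 4 library 1. HOXB3, HOXB6 and HOXD13 were the tested genes whose 3 BT single libraries all lay above the matched BTAG libraries. All 3 genes were tested only because of BT single or AG mid libraries, and the share of all genes that separate this way was not taken. For HOXD13 the gap was small, with 1 RPM in BT single day 4 library 1 against 0.58 RPM in BTAG day 4 library 1.

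Against BTAG of the same days in aRB27, 10 of the 18 genes rose (8.03% of all genes tested did) and 1 fell (6.94%). HOXA7 and HOXA10 were the risers that had entered the test on BTAG libraries alone. By limma, HOXA10 rose by 3.16 ± 0.80 (adjusted p = 0.00755) and HOXA7 by 2.05. The other 8 had to be high in BT single or AG mid to be tested, so their differences are given as sizes only: HOXB6 4.39 ± 0.58, HOXB3 3.92 ± 0.57, HOXB7 3.06 ± 0.60, and 2.04 to 3.03 for HOXA11, HOXB2 and the limb and genital bud genes HOXD10, HOXD11 and HOXD13. DESeq2 did not call HOXB3 (adjusted p = 0.106), HOXB6 (0.0609) or HOXB7 (0.566). CDX1 fell by 1.45 ± 0.41 (limma, adjusted p = 0.0175), yet the days went opposite ways. It stood at 2.73 RPM on day 2 against 85.31 and 24.86 RPM in BTAG, and at 30.36 and 17.37 RPM on day 4, above the 15.55 and 11.21 RPM of BTAG. CDX2 (-0.19 ± 0.43) and CDX4 (-0.52 ± 0.53) did not pass.

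The 3 BT single libraries were far apart. Summed HOX levels were 430.79 RPM on day 2, and 80.65 and 831 RPM in day 4 libraries 1 and 2, against 40.46 to 81.8 RPM in the 4 matched BTAG libraries. Without day 4 library 2 the count was 5 instead of 11, and CDX1, HOXA7 and HOXB2 were among the calls lost, and with every library as labelled it was 4 (HOXB3, HOXB6, HOXB7 and HOXD11). CDX1 was also lost without BTAG day 2 or day 4 library 1, HOXA7, HOXD10 and HOXD13 without BTAG day 4 library 2, HOXB2 without BTAG day 2 library 1 and HOXD10 without BTAG day 2 library 2. Markers of endoderm (9 genes) added up to 861.04 to 2290.73 RPM in BT single, with none of the 9 at 0 in all 3 libraries, against 41.65 to 135.56 RPM in BTAG. They stood at 2290.73 RPM on day 2 and at 861.04 and 1402.23 RPM in day 4 libraries 1 and 2. Of the 8 tested, 8 rose against BTAG, where 8.03% of all genes tested did. Of 7 mesoderm markers tested 3 rose and none fell (median 1.78), with sums of 358.36 to 501.03 RPM against 30.45 to 421.57 RPM in BTAG and none of the 9 at 0 in all 3 libraries. The part of either list in the HOX result was not tested.

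Against reporter ESC, 16 of the 18 genes rose in BT single cells and none fell, against a background of 10.9% higher and 6.99% lower. HOXA11 was at 26.65, 1.99 and 38.35 RPM, at least 98-fold above the ESC floor in the mean. HOXD9, a posterior gene of the D cluster, was at 10.25, 0.5 and 23.15 RPM and differed by 2.91 ± 0.66. Both passed the filter only with BT single or AG mid libraries. DESeq2 did not call HOXB3, HOXB6 or HOXB7 here either (adjusted p = 0.0559, 0.0721 and 0.395). The median log2 difference was 3.26 (3.70 with bounds), against 0.03 over all genes tested. As 11 of the 18 genes passed the filter only with BT single or AG mid libraries, the count and this median are an account, not evidence. With every library as labelled 9 rose, and CDX4 lost its call (1.99 ± 0.53) without BT single day 4 library 2.

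In AG mid cells, which have little PRDM1, HOXB2, HOXB6 and HOXC13 were among the tested genes that stood above all BTAG libraries kept. So did HOXB3, HOXD4, HOXD9, HOXD11 and HOXD13. Each of these named genes was tested only because of BT single or AG mid libraries. The share of all genes that separate this way was not taken. HOXB2, a hindbrain gene towards the 3′ end of its cluster, stood at 77.4 RPM in GK15 on day 4 and at 25.99 RPM in aRB27 on day 2, while BTAG libraries were at 0 to 1.95 RPM. HOXB6 stood at 64.84 and 28.88 RPM in the same order. HOXC13, the most 5′ gene of the C cluster and known from hair and nail, stood at 13 and 11.55 RPM, while the 3 matched BTAG libraries were at 0.

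Against BTAG of the same medium and day, 6 of the 18 genes rose (5.05% of all genes tested did) and 1 fell (6.02%). Among the risers HOXB2 (5.13 ± 0.66), HOXB6 (4.36 ± 0.69), HOXB3 (3.62 ± 0.68), HOXD13 (2.34 ± 0.69) and HOXC13 had to be high in AG mid or BT single to be tested, so their differences are given as sizes only. DESeq2 did not call HOXB3 (adjusted p = 0.307), HOXB6 (0.326), HOXC13 (0.147) or HOXD13 (0.139). HOXC13 reached 10 RPM in the AG mid libraries alone, where its mean was at least 39.7-fold above the floor of 3 reads over the 3 matched BTAG libraries. CDX1 fell by 2.89 ± 0.49 (limma, adjusted p = 0.000405), with 4.78 RPM in GK15 and 9.9 RPM in aRB27. CDX4, at 75.45 and 284.28 RPM, did not pass (1.37 ± 0.63). HOXA7, HOXA9 and HOXA10 differed from BTAG by -0.09 ± 0.68, 0.11 ± 0.63 and -0.06 ± 0.94 and did not pass, but each mean joined pairs that went opposite ways. HOXA9 stood at 46.92 RPM in GK15 against 92.33 RPM in BTAG, and at 48.69 RPM in aRB27 against 32.14 and 13.65 RPM. HOXA10 stood at 10.01 RPM in GK15 against 35 RPM, and at 19.8 RPM in aRB27 against 11.1 and 2.92 RPM. HOXA7 stood at 42.28 RPM in GK15 against 29.67 RPM, and at 8.66 RPM in aRB27 against 13.44 and 15.6 RPM. In AG mid, HOXA9 and HOXA10 were thus lower than BTAG in GK15 and higher in aRB27, and HOXA7 the reverse.

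**Figure D5:**
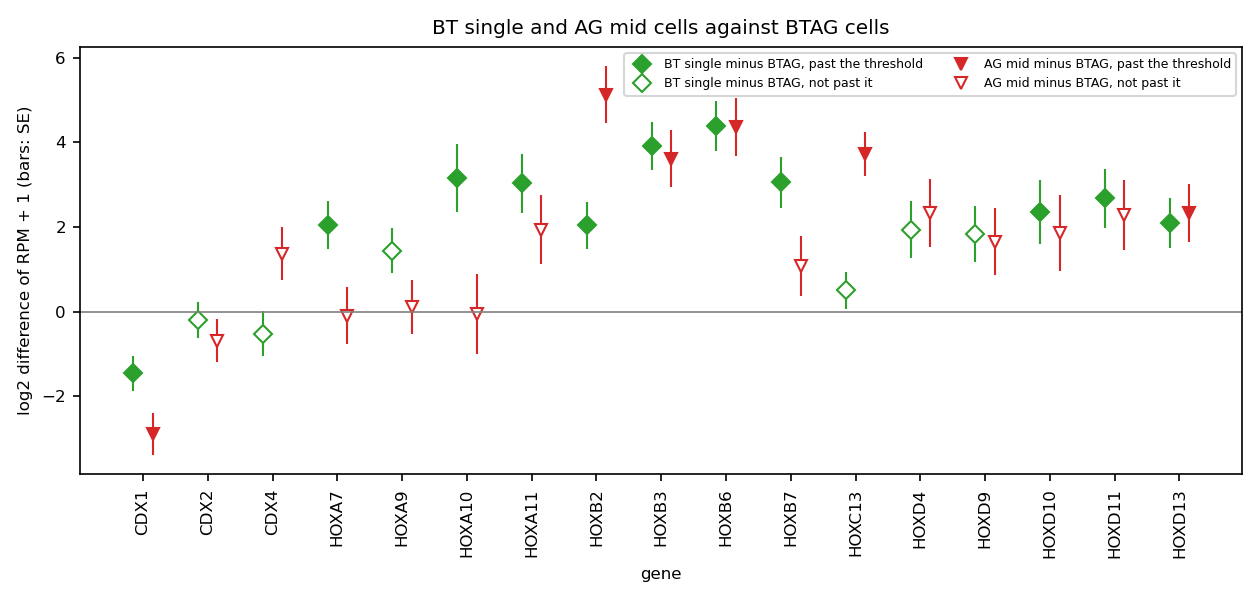
Difference in log2(RPM + 1) from matched BTAG libraries for the tested genes named in the text, in BT single and in AG mid, with bars of 1 SE. Filled points passed the threshold in limma. HOXB2, HOXB3, HOXB6 and HOXD13 are filled in both, HOXA7, HOXA10, HOXA11, HOXB7, HOXD10 and HOXD11 in BT single alone, HOXC13 in AG mid alone, and CDX1 is below 0 in both.

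Each AG mid group held 1 library, which was assumed to vary like the other groups, and with every library as labelled none of the 18 genes was called against BTAG or against ESC by limma. HOXD13 lost its call against BTAG without BTAG day 2 library 1 of aRB27 (2.19). Markers of amnion and trophoblast (9 genes) added up to 3822.67 and 3879.62 RPM in AG mid against 201.39 to 786.1 RPM in BTAG, and those of mesoderm (9 genes) to 3185.23 and 3401.06 RPM against 30.45 to 421.57 RPM. HAND1 is in both lists, at 2541.34 and 2459.06 RPM in AG mid against 9.29 to 278.28 RPM in BTAG, so the sums are not independent. No amnion marker and only MESP1 among those of mesoderm was at 0 in both AG mid libraries. The part of these cells in the HOX result was not tested. Of the endoderm markers, FOXA2 and HNF4A were at 0 in both. Whether BT single and AG mid differ from each other in any gene was not tested. Against reporter ESC, 16 of the 18 genes rose, all but HOXB7 and HOXD10, and none fell, against a background of 7.23% higher and 3.81% lower. DESeq2 did not call HOXB3, HOXB6 or HOXC13 there (adjusted p = 0.146, 0.113 and 0.178). The median log2 difference of the 18 was 3.80 (4.41 with bounds), against 0.08 over all genes tested. Since 11 of the 18 had to be high in BT single or AG mid to be tested, count and median are an account, not evidence.

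Genes that work with or upstream of HOX and CDX were followed in lists. Of the TALE cofactors (PBX, MEIS and PKNOX), which bind DNA together with HOX proteins, 8 of 9 were tested. In BTAG against ESC, 1 rose in each of the 4 comparisons, MEIS3 (by 2.67 on day 2, 3.09 in GK15 on day 6 and 2.32 on days 8 and 10), and 0, 1, 2 and 3 fell. A share of 1 in 8 is close to the 10.5% to 15.4% of all genes tested that rose, so it says nothing particular to the list. The falls stand beside 5.51%, 10.8%, 13.1% and 15.7% of all genes tested, and whether they exceed these was not tested. In AG mid against BTAG, 3 rose and none fell, against 5.05% and 6.02% of all genes tested. Among the 3 were MEIS2, by 5.69 ± 0.54, and MEIS1, by 4.96 ± 0.57. MEIS2 stood at 173.47 RPM in GK15 and at 21.45 RPM in aRB27, and MEIS1 at 135.22 and 11.97 RPM. In BT single against BTAG none of the 8 passed.

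Of 7 ParaHox and HOX-linked homeobox genes 2 could be tested, and they moved in opposite directions in BTAG. EVX1, which neighbours HOXA13 in the RefSeq annotation (T2T-MFA8v1.1) and marks the primitive streak, was at 0 in all 4 reporter ESC libraries and at 23.71 to 126.59 RPM in GK15 BTAG. On day 2 it was at least 122-fold and on days 8 and 10 at least 437-fold above the ESC floor. It also rose in BT single against BTAG, by 2.88 ± 0.59 (limma, adjusted p = 0.00151). GBX2, a homeobox gene of naive pluripotency and the hindbrain boundary, fell by 4.75 ± 0.45 on day 2 and by 4.21 ± 0.40 on days 8 and 10.

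Of 16 posterior WNT, FGF and mesoderm signals, 11 could be tested. On day 2, 9 of the 11 rose and none fell, against 10.5% and 5.51% of all genes tested. The largest differences were those of T (brachyury), a factor of the primitive streak, with 6.45 ± 0.54, NKX1-2, a marker of the caudal epiblast, with 6.08 ± 0.39, WNT5B with 4.50 ± 0.28 and WNT3 with 4.45 ± 0.38. The median of the 11 genes was 3.08, against 0.05 over all genes tested. Over days in BTAG, 0 of 9 rose and 5 fell, against 7.14% and 12.2% of all genes tested. Among the 5 were SP5 (-5.29 ± 0.99), a WNT target, WNT8A (-3.67 ± 0.91) and AXIN2 (-2.47 ± 0.53). In BT single against BTAG, 3 rose and 3 fell, against 8.03% and 6.94% of all genes tested. FGF17 rose by 5.03 ± 0.57, SP5 by 3.32 ± 0.59 and LEF1 by 2.83 ± 0.58. T fell by 4.55 ± 0.54, WNT3 by 2.19 ± 0.38 and WNT5B by 1.09 ± 0.28. In AG mid against BTAG, LEF1 rose by 3.47 ± 0.69, and T fell by 5.32 ± 0.64. NKX1-2 fell by 3.10 ± 0.46.

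Of 10 retinoic acid and GDF11 inputs, 7 could be tested. On day 2, 1 rose, STRA6, a retinol receptor, and none fell, where 10.5% of all genes tested rose and 5.51% fell. A share of 1 in 7 is close to that. In GK15 on days 8 and 10, 2 rose and 3 fell, where 15.4% of all genes tested rose and 15.7% fell. STRA6 rose by 2.34 ± 0.25 and DHRS3 by 2.05 ± 0.52. CRABP2 fell by 5.70 ± 0.53 and CRABP1 by 3.09 ± 0.46, both binding proteins for retinoic acid. RARG, a receptor, fell by 2.18 ± 0.46. CRABP2 rose in BT single (2.47 ± 0.59) and in AG mid (2.67 ± 0.70) against BTAG.

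Of 17 Polycomb genes, whose proteins keep HOX clusters repressed, 15 could be tested. BMI1, a subunit of the first Polycomb complex, rose by 1.26 ± 0.36 on day 2, by 3.81 ± 0.40 in GK15 on day 6 and by 3.81 ± 0.32 on days 8 and 10. PHC1 fell by 2.95 ± 0.28 and JARID2 by 1.90 ± 0.31 on day 2. On that day 1 of the 15 rose and 2 fell, where 10.5% of all genes tested rose and 5.51% fell. On days 8 and 10, 3 of the 15 rose and 5 fell, where 15.4% of all genes tested rose and 15.7% fell. Among the 5 were PHC2 (-3.02 ± 0.34) and EZH2, the H3K27 methyltransferase (-1.53 ± 0.18). The numbers that rose are close to these shares, so they say nothing particular to the list. Whether the numbers that fell exceed their shares was not tested. The 9 trithorax genes and H3K27 demethylases tested, which counter Polycomb, had median differences of -0.01, -0.06, -0.11 and 0.12 in the 4 comparisons of BTAG with ESC, where none passed in limma. KDM6B, an H3K27 demethylase, rose in BT single against BTAG by 2.03 ± 0.51. It was the 1 of these 9 that rose there, where 8.03% of all genes tested did.

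Reporter ESC were compared with ESC of lines without transgenes (CMK6, 656, 681F and 22). The latter had the title codes MS116 or MS173 and reporter ESC had MS134 or MS162. Transgenes, line and title code thus cannot be told apart here. None of the 18 genes was called by limma or edgeR, against a background of 2.57% called by limma. At an unadjusted p under 0.05 in limma there were 0 of the 18, and 2173 of all 11008 genes tested. DESeq2 called 1, HOXD4, a gene of the neck region, lower in reporter ESC, where it was at 0 in all 4 libraries. In transgene-free ESC it stood at 0 and 0 RPM in CMK6, 0.98 RPM in 656, 2.98 RPM in 681F and 4.67 RPM in 22.

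In mouse PGCLC, summed Hox levels were 143.98 and 32.25 RPM on day 4 and 3.36 and 6.03 RPM on day 6. Of 39 Hox genes, 19 were higher in both day 4 libraries than in both day 6 libraries, and 0 were lower, with 2 libraries per day. The share of all mouse genes that did so was not taken, so this count is an account, not evidence. Some of the 19 rest on about 1 read per library, such as Hoxc4 at 0.44 and 0.44 RPM on day 4 against 0 and 0 RPM on day 6. Hoxd9 stood at 12.37 and 6.63 RPM on day 4 and at 0.42 and 0.81 RPM on day 6. Hoxa9 stood at 15.9 and 0.88 RPM on day 4 and at 0 and 0.4 RPM on day 6, and Hoxa10 at 18.11 and 1.77, then 0 and 0.4 RPM, so that much of the day 4 signal came from 1 library. Cdx1 stood at 7.51 and 14.14 RPM on day 4 and at 5.88 and 3.63 RPM on day 6. Cdx2 stood at 8.83 and 9.28, then 1.26 and 4.04 RPM, and Cdx4 at 1.32 and 1.33, then 0.42 and 0 RPM. None of the 42 genes reached 10 RPM in 2 libraries, so none entered the limma fit, in which 2.59% of 8255 genes tested were called, and 7 were at 0 in all 4 libraries. With a filter on a mean of at least 5 RPM instead, Hoxd9 was called lower on day 6. The mouse and monkey tables were scaled separately, so levels are not compared between them.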

How the data were processed

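The authors deposited RPM per gene, 1 table per species, from 3′ RNA-seq of 1 ng total RNA per the labels. The submitters' processing notes name cutadapt 1.3, TopHat 1.4.1, Cufflinks 2.2.0 and GRCm38. For monkey, a build is not given in the sources used. Strand was not used, so overlapping and antisense HOX transcripts cannot be told apart. Of the nonzero RPM values at low read counts, 99.4% to 99.8% per library were close to whole multiples of 1 read. Read counts were recovered by rounding to these multiples, and values at higher counts were not checked in this way. Among 703 pairs of monkey libraries 0 were identical.

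Groups followed the labels, and libraries are numbered by accession order. Tests used limma 3.58.1 (R 4.3.3) with an intensity trend on log2(RPM + 1), over entries with at least 10 RPM in at least 2 libraries of the fit. Entries were called at a Benjamini-Hochberg adjusted p under 0.05 over all genes tested and a log2 difference of at least 1, or a slope of at least 1 over 8 days. The 24 kept reporter-line libraries were fitted together, 29 for the comparison of ESC lines, 15 for the trend and 4 in mouse, without 96 spike-in entries. Scripts were tested on simulated data.

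Genes of the families were named, those tested with values, and up to 4 called members of each list, except that some items are not reported here. The genes, lists and left-out libraries were chosen with earlier results of these data known. Symbols were matched by gene ID to RefSeq for 39 of 41 monkey genes. As alternatives the pseudocount was set to 0.1 or 10, the filter was dropped or replaced by a mean of 5 RPM or more, RPM were rescaled by medians of ratios, recovered reads were fitted by DESeq2 1.42.0 or by edgeR 4.0.16 with quasi-likelihood, and the call used the adjusted p alone. Other fits had the title code (MS134 or MS162) as a covariate, MS162 alone, every library as labelled, or 1 library left out in turn. A trend in GK15 libraries alone was added after seeing the data. Figures were drawn with matplotlib 3.10.9.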

Additional observations from a re-analysis of the deposited data

Results flagged for a closer look

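Of the 9 libraries left out for their labels, 8 had summed HOX levels above 11.88 RPM, the highest of the 4 reporter ESC libraries kept. The library labelled reporter ESC library 5 stood at 194.19 RPM, with CDX1 at 192.18 RPM and HOXA7 at 62.33 RPM, genes that were at 0 and at up to 3.08 RPM in the ESC libraries kept. The library labelled GK15 BTAG day 4 library 2 stood at 859 RPM, with HOXB6 at 196.39 RPM, and that labelled GK15 BTAG day 2 library 2 at 152.14 RPM, with HOXB2 at 25.18 RPM. Both had more HOXB signal than any BTAG library kept. Of those labelled GK15 AG mid, the one of day 2 stood at 193.73 RPM and library 2 of day 4 at 84.32 RPM, with HOXB2 and HOXB6 at 0 in both. The 3 labelled aRB27 BTAG, day 6 library 2, day 8 library 1 and day 10 library 1, stood at 25.6, 53.58 and 22.16 RPM.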

How the results depend on the processing

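For 79 differences called for single genes, the other settings gave 1277 values. None of these changed sign, 1122 stayed past the threshold and 155 did not. Differences that a setting left untested are not among them: the filter on a mean of at least 5 RPM gave values for 61 of the 79. Counts of genes called moved by over 1.5 times in the following cases, whose cause was not tested. With a pseudocount of 0.1 the day 2 count was 8. With a pseudocount of 10 the counts were 5 in GK15 on day 6, 3 in aRB27 on day 6, 5 in GK15 on days 8 and 10, 1 between media and 7 in BT single against BTAG. Without a filter they were 4 for the trend, 17 in BT single and 12 in AG mid against BTAG, where more genes were tested. With a mean of at least 5 RPM they were 7 in BT single against BTAG, 10 in BT single against ESC and 1 in mouse. DESeq2 gave 8 on day 2, 1 between media, 3 in AG mid against BTAG and 1 between ESC lines. With every library as labelled the counts were 0 on day 2, 0 and 2 on day 6 in GK15 and aRB27, 5 on days 8 and 10, 1 for the trend, 4 and 9 in BT single against BTAG and ESC, and 0 and 0 in AG mid against BTAG and ESC. With MS162 libraries alone they were 5 and 3 on day 6 in GK15 and aRB27. With single libraries left out, the counts ranged from 5 to 5 on day 2, 6 to 8 and 4 to 6 on day 6 in GK15 and aRB27, 7 to 8 on days 8 and 10, 1 to 3 for the trend, 0 to 1 between media, 5 to 14 and 13 to 16 in BT single against BTAG and ESC, 7 to 8 and 16 to 16 in AG mid against BTAG and ESC, and 0 to 0 between ESC lines and in mouse. Leaving out the only library of a group (10 cases) and MS162 alone for AG mid were not run. No paired analysis was possible because the labels give no replicate numbers and state no pairing, and the serial numbers in the titles were not read as one. Levels of a few RPM rest on few reads, since 1 read stood for up to 0.929 RPM.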
